A study of Caenorhabditis elegans with 4 samples.

Results

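The mitochondrial genes for cytochrome b (CYTB), the cytochrome c oxidase subunits COX1, COX2 and COX3, and the ATP synthase subunit ATP6 were examined in peak lists from chromatin immunoprecipitation sequencing (ChIP-seq) of the Y-box protein CEY-2. They are the 5 genes of respiratory complexes III, IV and V among the 12 coding genes of the mitochondrial genome of Caenorhabditis elegans, out of 19985 protein-coding genes in all. Membership follows from the annotation and used no measured value, although the set was chosen with earlier results of these data known. A peak was assigned to a gene when its summit, the base with the caller's highest score, lay within the annotated limits.

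All material came from whole hermaphrodites at the fourth larval stage (L4) of strain OP358, which carries the integrated transgene wgIs358 and the mutation unc-119(tm4063) III. The transgene encodes CEY-2 with GFP and FLAG at its C terminus, and the precipitation used an antibody against GFP, although the labels' antibody field names cey-2. The age of the worms is given as unknown. The labels do not say which promoter drives the fusion, or in which tissues it is made. The 4 libraries came from 3 biological replicates, the 2 technical libraries of replicate 2 sharing 1 alignment, and all of them form 1 group. Every library carries the transgene, and the control used by the authors for peak calling was not analysed here. Comparisons were therefore made between genes and between replicates. The lists hold no read counts, so the depth is unknown. In whole worms the number of mitochondrial genomes and the DNA recovered from each of them cannot be told apart.

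The respiratory chain of the inner mitochondrial membrane passes electrons to oxygen and pumps protons, and ATP synthase uses the proton gradient to make ATP. CYTB is the only subunit of complex III that the mitochondrial genome encodes, and it carries haem groups. COX1 holds the site of oxygen reduction in complex IV, COX2 accepts electrons from cytochrome c, and COX3 is the remaining core subunit. ATP6 forms part of the proton path of ATP synthase. Y-box proteins have a cold shock domain and are known mainly as RNA-binding proteins. In the mitochondrial genome of 13794 bp, all 36 annotated genes (12 coding, 22 tRNA and 2 rRNA genes) lie on the same strand. The 5 genes described here make up 34.8% of the molecule.

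The DNA at the highest summit of each gene in the thresholded list is shown first, since the position of these summits is the main result. This list holds the 611 peaks that passed the authors' irreproducible discovery rate (IDR) threshold. Sequences are from the RefSeq copy of assembly WBcel235 (build ce11), read 5′ to 3′ on the plus strand, which is the coding strand of all 5 genes. Each line covers 140 bp on both sides of the IDR summit. Capitals mark the span between the summits that the 3 replicate lists placed nearest to it in the same gene. The IDR summits of COX1, COX3 and ATP6, at 9128, 6317 and 2962, lie just outside it. The lines cover chrM:4579-4859 for CYTB, chrM:6177-6457 for COX3, chrM:2822-3102 for ATP6, chrM:8988-9268 for COX1 and chrM:10198-10478 for COX2.
CYTB: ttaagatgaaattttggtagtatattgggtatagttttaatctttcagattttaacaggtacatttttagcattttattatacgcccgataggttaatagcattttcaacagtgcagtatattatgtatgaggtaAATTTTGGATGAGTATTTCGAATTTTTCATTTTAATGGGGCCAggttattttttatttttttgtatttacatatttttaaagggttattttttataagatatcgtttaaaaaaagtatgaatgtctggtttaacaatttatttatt
COX3: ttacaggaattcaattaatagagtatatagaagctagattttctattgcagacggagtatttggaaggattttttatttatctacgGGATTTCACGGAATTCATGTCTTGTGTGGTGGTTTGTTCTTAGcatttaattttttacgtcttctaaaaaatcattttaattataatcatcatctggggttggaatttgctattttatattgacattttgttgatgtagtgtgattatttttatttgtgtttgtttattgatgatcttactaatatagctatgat
ATP6: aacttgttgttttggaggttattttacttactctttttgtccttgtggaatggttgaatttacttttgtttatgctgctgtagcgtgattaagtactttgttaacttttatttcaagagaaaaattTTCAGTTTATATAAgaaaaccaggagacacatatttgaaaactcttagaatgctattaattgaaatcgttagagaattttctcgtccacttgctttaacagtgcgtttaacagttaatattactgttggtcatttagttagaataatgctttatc
COX1: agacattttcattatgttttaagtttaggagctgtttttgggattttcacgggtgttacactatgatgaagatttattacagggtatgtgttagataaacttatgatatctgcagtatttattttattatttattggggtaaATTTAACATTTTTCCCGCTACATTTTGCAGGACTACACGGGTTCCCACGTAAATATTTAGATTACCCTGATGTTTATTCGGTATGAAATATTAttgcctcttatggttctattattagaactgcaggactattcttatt
COX2: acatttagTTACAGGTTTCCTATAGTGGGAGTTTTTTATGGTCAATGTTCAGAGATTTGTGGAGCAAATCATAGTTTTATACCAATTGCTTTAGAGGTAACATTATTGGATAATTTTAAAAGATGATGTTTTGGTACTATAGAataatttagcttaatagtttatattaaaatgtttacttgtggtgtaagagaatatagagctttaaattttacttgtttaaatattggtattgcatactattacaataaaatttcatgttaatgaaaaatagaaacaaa

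The capitals span 14 bp in ATP6, 43 bp in CYTB, 43 bp in COX3, 93 bp in COX1 and 135 bp in COX2. The replicates thus placed the ATP6 summit most closely and the COX2 summit least closely. The printed line of COX2 runs past the end of the gene into the tRNA gene WBGene00014471 and an rRNA gene. The printed line of COX3 runs past its last base into the tRNA gene WBGene00014466.

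Each of the 5 genes held at least 1 IDR summit, 10 in all. For comparison, 0.891% of the 19985 coding genes (178) and 91.7% of the 12 mitochondrial coding genes (11) held 1. The share of the 5 genes is therefore close to that of the mitochondrial genes as a whole. COX1 and COX2 held 3 summits each, CYTB held 2, and COX3 and ATP6 held 1 each. All 10 were also the only summits of these genes in the pooled list of 25484 peaks, so no peak of these genes lay just below the threshold. This was not particular to the 5 genes. The pooled list held 26 mitochondrial peaks and the IDR list 25, and for the complex I genes the numbers were 13 and 12. Among the top 611 peaks of replicates 1, 2 and 3 the genes held 11, 7 and 9 summits, and again all 5 genes were hit in each. There the share of all coding genes with a summit was 1.11%, 0.881% and 0.956%, and that of mitochondrial genes 91.7% in each.

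CYTB (WBGene00000829, chrM:4504-5621) carried the highest peak of every list. The caller's signal value, which is comparable only within a list, was 2297 in the IDR list and 580, 989.8 and 698.2 in replicates 1, 2 and 3. The next highest peak of each list, in the complex I gene ND5, was lower by factors of 1.5, 1.07, 1.27 and 1.81 in the same order. Rank 1 was thus held by a narrow margin in replicate 1 and a wide one in replicate 3. Against the highest nuclear peak of its list the CYTB signal was 14.1 times as high in the IDR list and 9.91, 13.2 and 18.4 times as high in replicates 1, 2 and 3.

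The CYTB summit lay near the start of the gene in every list, between 18.9% and 22.6% of the way along it. It was at 4719 in the IDR list and at 4756, 4714 and 4732 in replicates 1, 2 and 3, which is 215, 252, 210 and 228 bp from the start of the gene. The SD over the 3 replicates was 21.1 bp. The peak interval was the longest among the peaks of these 5 genes in each list, at 890 bp in the IDR list and 616, 825 and 634 bp in the replicates. In the IDR list it began upstream of the gene, at 4282, and touched 4 tRNA genes (WBGene00014461, WBGene00014462, WBGene00014463 and WBGene00014464) as well as the first part of CYTB. The stretch 4504 to 5003, 500 bp from the first base of the gene, was under a top peak in all 3 replicates.

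A second, much lower peak lay in the later part of CYTB in 3 of the 4 lists. Its IDR summit was at 5330, with a signal of 60.3 and rank 128. Replicate 2 had a summit at 5271 with a signal of 122 and rank 16, and replicate 1 one at 5388 with a signal of 18.5 and rank 311. In replicate 3 no summit lay in this part of the gene. The first peak of the gene exceeded the second by a factor of 38.1 in the IDR list, 31.3 in replicate 1 and 8.11 in replicate 2. Between replicates 1 and 2 the second summit moved by more than the first.

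**Figure D1:**
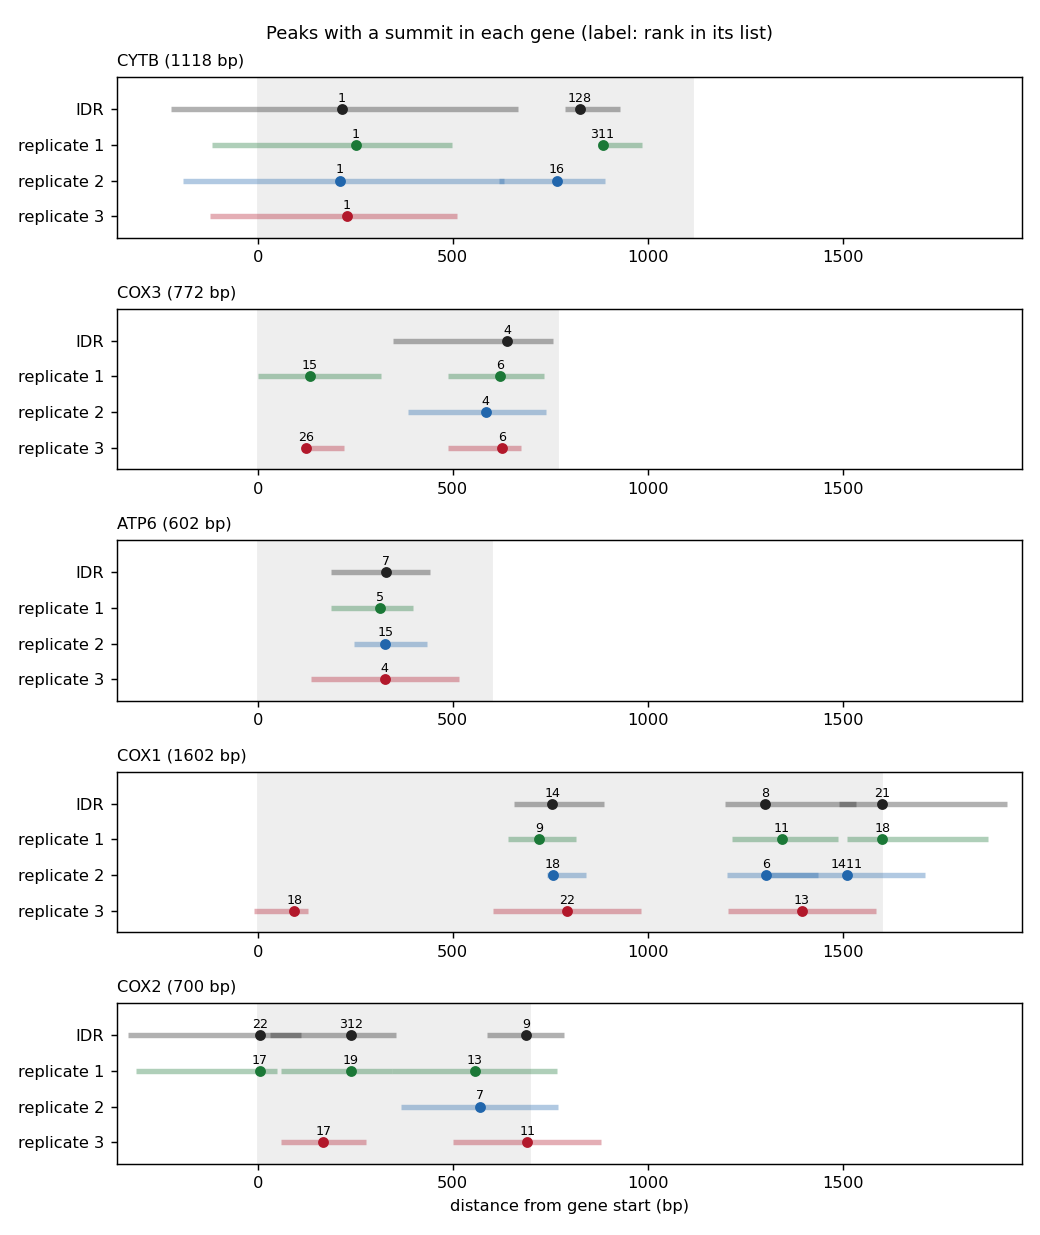
Peaks with a summit in each of the 5 genes, by distance from the gene start in bp (horizontal axis) and list (rows). Bars are peak intervals, points are summits, numbers are ranks within the list and grey is the annotated gene. The CYTB summits of rank 1 lie 210 to 252 bp from the gene start in all lists, while the early COX3 summits appear only in replicates 1 and 3.

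COX3 (WBGene00010962, chrM:5678-6449) had its highest summit towards the end of the gene, between 75.9% and 82.9% of the way along it. The IDR summit was at 6317, with a signal of 735 and rank 4. The replicates placed it at 6300, 6263 and 6305 (SD 22.9 bp), with signals of 326, 376 and 139 and ranks 6, 4 and 6. It was the member gene whose rank, after that of CYTB, varied least, with a mean rank of 5.33 ± 1.15 (SD, n = 3).

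Replicates 1 and 3 also placed a summit near the start of COX3, at 5812 and 5803, which the IDR and pooled lists lack. These summits were 9 bp apart and lay 134 and 125 bp from the gene start. The signal was 145 in replicate 1, at rank 15, and 28.8 in replicate 3, at rank 26. Replicate 2 had no summit there. The nearest pooled summit was at 5330, inside CYTB, and neither summit was inside a pooled peak. These were the only replicate summits of the 5 genes, besides 1 of COX1, with no pooled summit within 200 bp, the other 25 of 28 having 1.

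ATP6 (WBGene00010960, chrM:2634-3235) had a single summit in every list, close to the middle of the gene. It lay at 2962 in the IDR list and at 2948, 2961 and 2960 in replicates 1, 2 and 3 (SD 7.23 bp), between 52.3% and 54.7% of the way along the gene. The signal was 536 in the IDR list and 366, 124 and 156.5 in the replicates. Although its position was the most constant of the 5 genes, its rank was the least constant. It held rank 7 in the IDR list and ranks 5, 15 and 4 in replicates 1, 2 and 3, with a mean of 8 ± 6.08 (SD, n = 3). Without replicate 2 the mean was 4.5. Relative to the CYTB signal of the same list, the ATP6 signal was 63.1%, 12.5% and 22.4% in the 3 replicates.

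COX1 (WBGene00010964, chrM:7827-9428), the longest of the 5 genes, had several summits, the highest 2.18 times as high as the second in the IDR list. In the IDR list they were at 9128 (signal 525, rank 8), 8582 (240, rank 14) and 9428 (142, rank 21). The summit near 9128 recurred at 9170, 9130 and 9222 in replicates 1, 2 and 3, with signals of 206, 281 and 73.3 and ranks 11, 6 and 13. The summit near 8582 recurred at 8548, 8583 and 8620, with signals of 229.5, 108 and 37.1 and ranks 9, 18 and 22. In replicate 1 the latter was the higher by a factor of 1.11, and in replicate 2 the former by a factor of 2.6. The order of these summits thus differed between replicates. The highest summit of the gene consequently moved by up to 674 bp (SD 365 bp), the widest spread among the 5 genes. Without replicate 1 the SD was 65.1 bp.

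The third COX1 summit lay on the last base of the annotated gene, 9428, beyond the end of the coding sequence at 9419. The same base belongs to the tRNA gene WBGene00014467 (chrM:9422-9476), so the peak cannot be given to COX1 alone. Replicate 1 had a summit on exactly the same base (signal 92.1, rank 18). Replicate 2 had its nearest summit at 9337 with a signal of 13.5 and rank 1411, the lowest rank of any peak in these genes. Replicate 3 had its nearest summit at 9553, outside COX1, with a signal of 43.9 and rank 20. Replicate 3 also had a summit at 7921, near the start of COX1, with a signal of 52.1 and rank 18, while the nearest pooled summit was at 7705, in ND4. That summit of replicate 3 lay inside the pooled peak.

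A long stretch of COX1 lay under no top peak of the replicates. It ran from 7957 to 8429, 473 bp. In the IDR list a peak with its summit in ND4, at 7705, reached into this stretch as far as 8002. In all, 693 of the 1602 bases of COX1 (43.3%) lay under no top peak of any replicate, against 131 of 1118 in CYTB, 136 of 602 in ATP6, 83 of 772 in COX3 and 9 of 700 in COX2. COX2 was thus almost fully covered by the replicates together, though only 199 of its bases (28.4%) were covered in all 3.

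COX2 (WBGene00010965, chrM:9649-10348) had its highest summit near its end in all lists. The IDR summit was at 10338, 3 bases before the end of the coding sequence, with a signal of 491.5 and rank 9. Its peak ran from 10238 to 10433 into the tRNA gene WBGene00014471 and an rRNA gene. The highest COX2 summit was at 10206, 10219 and 10340 in replicates 1, 2 and 3 (SD 73.9 bp), with signals of 164, 269.5 and 108 and ranks 13, 7 and 11. Replicates 1 and 2 thus placed it before the IDR summit, and replicate 3 placed it 2 bp beyond. Without replicate 3 the SD was 9.19 bp. Each of these 3 replicate peaks had the commonest width of its list. Replicate 1 also had a summit at 10406, outside COX2, which lay nearer to the IDR summit and ranked 122.

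The other COX2 summits were at 9655, 6 bp from the gene start, with an IDR signal of 139 and rank 22, and at 9888, with a signal of 45.1 and rank 312. The IDR peak of 9655 ran from 9316 to 9760, across the end of COX1 and the tRNA genes between. It cannot be given to COX2 alone, since the peak of the COX1 summit at 9428 ran from 9316 to 9748. In replicate 1 the summits at 9428 and 9655 lay in the same interval, 9338 to 9698. Replicate 1 had both 9655 and 9888 on the same bases as the IDR list, with signals of 93.5 and 87.1 and ranks 17 and 19. Replicate 3 had 1 summit in this part of the gene, at 9817 (57.3, rank 17), and replicate 2 had none. The peak at 9888 was the lowest of the 10 in the IDR list and lay just below the median signal of that list, 45.7. Together with 9428 in COX1, these were the 3 replicate summits that fell on the same base as a pooled summit, and all 3 were from replicate 1.

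Of the 10 IDR summits, 7 had a summit within 200 bp in each of the 3 replicate lists. The exceptions were 5330 in CYTB, which replicate 3 lacked, and 9655 and 9888 in COX2, which replicate 2 lacked. The highest IDR summit of each gene was among the 7. When only the top 611 peaks of each replicate were used, 6 had a match in all 3, and with a limit of 50 bp 3 had one. A match could lie outside the gene of the IDR summit. Replicates 1, 2 and 3 held 28, 27 and 23 mitochondrial peaks, covering 56.4%, 53.6% and 48.2% of the molecule. A match within 200 bp is therefore easily met, and the number that chance alone would give was not tested. The IDR list was itself derived from these replicate lists and the pooled list, so the matches are not independent of it. The same count was not made for the other mitochondrial IDR summits.

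Ordered by the rank of their highest summit, CYTB stood apart from the other 4 genes, whose ranks mostly overlapped. The mean rank over the 3 replicate lists was 1 ± 0 for CYTB, 5.33 ± 1.15 for COX3, 8 ± 6.08 for ATP6, 9.33 ± 3.51 for COX1 and 10.3 ± 3.06 for COX2 (SD, n = 3). The ranks ran from 4 to 6 in COX3, 4 to 15 in ATP6, 6 to 13 in COX1 and 7 to 13 in COX2. The ranges of ATP6, COX1 and COX2 overlapped one another, that of COX3 lay within that of ATP6, and those of COX3 and COX2 did not meet. COX3 ranked above COX1 and COX2 in every replicate, but above ATP6 in replicate 2 alone. COX1, COX2 and ATP6 changed places. ATP6 stood above both in replicates 1 and 3 and below both in replicate 2, and COX2 stood above COX1 in replicate 3.

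Within a list, the other genes reached between 10.5% and 63.1% of the CYTB signal. COX3 reached 56.2%, 38% and 19.9% in replicates 1, 2 and 3, COX1 39.6%, 28.3% and 10.5%, and COX2 28.3%, 27.2% and 15.4%. All 3 complex IV genes were nearest to CYTB in replicate 1 and farthest from it in replicate 3. Among the complex I genes with a summit, some showed the same order and others were farthest from CYTB in replicate 2. The lowest of the 5 genes still stood above every nuclear peak of its list. The factor was 3.01 in the IDR list and 2.8, 1.66 and 1.93 in replicates 1, 2 and 3. This was not particular to the 5 genes, since the 6 complex I genes with a summit did so too. The lowest of those ranked 12, 12, 14 and 15 in the IDR list and replicates 1, 2 and 3. The highest nuclear peak ranked 18, 22, 21 and 21 in the same order.

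**Figure D2:**
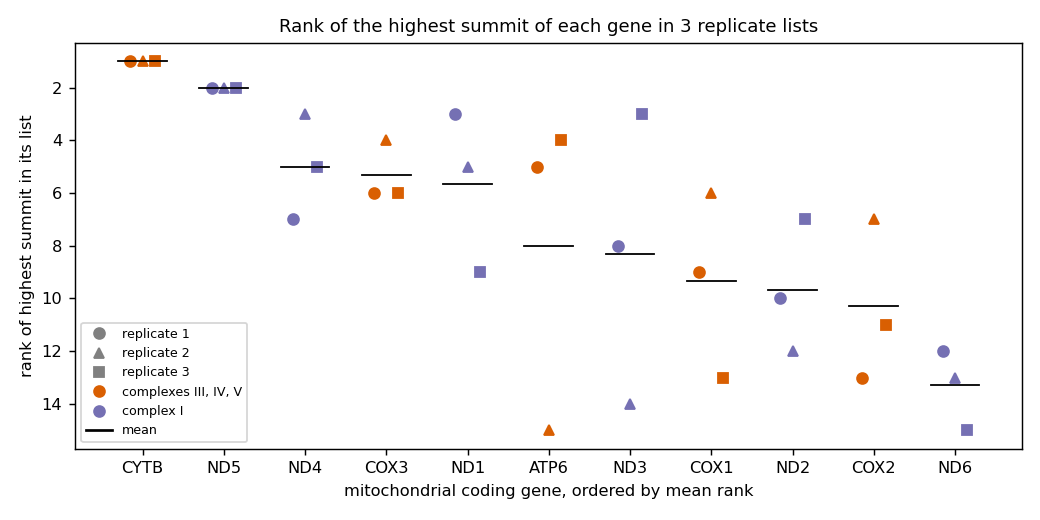
Rank of the highest summit of each mitochondrial coding gene within its list (vertical axis, rank 1 at the top), for the 3 replicates (point shapes) with their mean (line). CYTB holds rank 1 and ND5 rank 2 in all 3 replicates, while ATP6 ranges from 4 to 15. ND4L had no summit and is not shown.

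The genes of complex I, the NADH dehydrogenase, lie between these 5 genes on the same molecule. Of its 7 mitochondrial genes 6 held a summit in every list, ND4L being the exception. The mitochondrial coding gene nearest in mean rank, over 3 replicates, was ND5 for CYTB (2 ± 0), ND4 (5 ± 2) and, equally near, ND1 (5.67 ± 3.06) for COX3, ND3 for ATP6 (8.33 ± 5.51) and ND2 (9.67 ± 2.52) for both COX1 and COX2. The IDR list held 2.09 summits per kb in the 5 genes and 2.13 per kb in complex I genes. The full lists held 2.29 against 2.3 per kb in replicate 1, 1.67 against 2.66 in replicate 2 and 1.88 against 1.95 in replicate 3. The gap was widest in replicate 2, where the 5 genes held 8 summits and the complex I genes 15.

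The top 611 peaks of replicates 1, 2 and 3 covered 56.9%, 45.6% and 52.7% of the bases of the 5 genes, and 59.8%, 49.4% and 47.9% of those of the complex I genes. The mean shares were 51.7% ± 5.71 and 52.4% ± 6.48 (SD, n = 3). The difference of -0.637 percentage points (SD 4.72) was below 0 in 2 replicates and above 0 in 1, and a two-sided exact sign-flip permutation test over the 3 replicates gave p = 1. With 3 replicates that test cannot go below 0.25. The difference turned to 3.37 points when each gene weighed the same, and to 0.503 and 0.939 points without replicate 1 or 2, so no direction can be read from it.

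**Figure D3:**
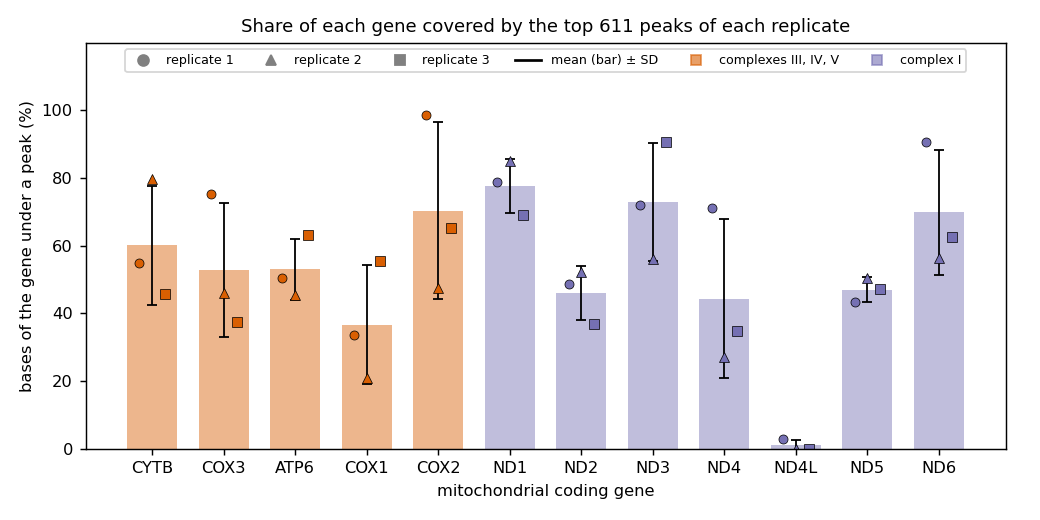
Percentage of the bases of each mitochondrial coding gene under the top 611 peaks of replicates 1, 2 and 3 (points), with the mean (bar) and SD (error bar). The shares of the 5 genes, from 20.8% to 98.7%, overlap those of the complex I genes, and ND4L stands at 0 to 2.98%.

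The widths of the mitochondrial peaks were more varied than those of nuclear peaks in these lists. Nearly all peaks of a list had 1 common width, 424, 404 and 380 bp in replicates 1, 2 and 3, while 22, 20 and 14 peaks had another width, and every one of these was mitochondrial. In the IDR list 28 of 611 peaks departed from the common 390 bp, of which 23 were mitochondrial. All 10 IDR peaks of the 5 genes were of this kind, as were 21 of the 28 replicate peaks. The widths of these 10 ran from 143 to 890 bp. No test was made of this difference.

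In CYTB and COX2 the GC content around the highest summit was close to that of the gene. The 201 bp window of COX2 runs past the gene end at 10348 into the tRNA gene WBGene00014471 and an rRNA gene. Its values are therefore not those of COX2 sequence alone. Within 100 bp of the summit the GC content was 25.9% in CYTB, against 26.1% over the gene, and 25.4% in COX2, against 25.7%. It was 28.9% in COX3 (gene 27.8%), 32.3% in COX1 (gene 29.5%) and 30.8% in ATP6 (gene 23.9%), all above the 23.8% of the whole molecule. Among all 201 bp windows of the molecule, 10.7% had a GC content at or above that of the ATP6 window and 5.07% at or above that of the COX1 window, against 41.8% for CYTB. T was the commonest base of the plus strand in all 5 windows. It made up 47.3% of the CYTB window and 47.8% of that of COX3, above the 43.9% and 44.4% of these genes. In ATP6, COX1 and COX2 it made up 38.8%, 40.3% and 41.3%, below the 46%, 42.3% and 43% of the genes.

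Words were searched on both strands in these 201 bp windows, which are shorter than the printed lines. Only ATTGG, the core of the Y-box (CCAAT on the other strand), was found. The COX1 window held 1 match and the COX2 window 3, while those of CYTB, COX3 and ATP6 held none. Of the COX2 matches, 1 lies beyond the end of the gene, in the rRNA gene. The printed CYTB line does hold the word near its beginning, outside the searched window. Of all 201 bp windows of the molecule, 37.5% held the word. None of the 5 windows held GAGAGA, which 4.33% of all windows held. The word CACGTG was likewise in none, against 1.44% of all windows, and so was TGATAA, against 20.8%. These are counts of letters in the reference, and say nothing of binding by any factor.

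No 36-base word of the 5 genes recurred in the nuclear chromosomes of the reference, on either strand. Over the whole mitochondrial genome 12 of 13759 such words did, in runs of up to 47 bp, and none of them lay within a coding gene. The read length is not given in the sources used here, so the bearing of this on the alignments was not tested.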

How the data were processed

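ChIP-seq of GFP-tagged CEY-2 was deposited as peak lists, which the authors called for each of 3 biological replicates and for the pooled replicates against a control. Peaks passing IDR were deposited as a further list, in builds ce10 and ce11, per the READMEs of the libraries. The peak caller is not given in the sources used here, nor is the aligner. Column 7 of each deposited list is the caller's signal value and column 9 a −log10 q-value, which is at its ceiling for all 611 IDR peaks and was not used. Ranks were taken by signal within a list.

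Genes came from Ensembl release 115, whose assembly is that of the ce11 lists, with symbols from the RefSeq gene sharing at least 80% of the bases. Positions are 1-based (column 2 plus column 10, plus 1). Named are all 5 genes with all IDR peaks and each list's highest summit, and complex I genes adjoining them in rank. The remaining replicate peaks were named after their values were seen. Members, words and tests were chosen with earlier results of these data known. The top peaks of a replicate are as many as the IDR list holds. p-values measure the spread between these replicates only. Python 3.11.15, numpy 2.4.6 and pandas 2.3.3 were used, and assignment and coverage were tested on simulated data.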

Additional observations from a re-analysis of the deposited data

How the results depend on the processing

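Of the 10 IDR summits in the 5 genes, 9 remained with coding sequence or RefSeq limits (alternatives chosen after seeing the data) and 9 at or above the median signal. With limits extended by 100 bp there were 11, and 15 peaks touched a gene with any base. ATP6 then had 5 peaks instead of 1. In ce10 there were also 25 mitochondrial IDR peaks, with a highest signal of 2233 against 2297. Within 100 bp 5 and within 50 bp 3 of 10 summits were matched in all replicates, against 7. Ranks among distinct intervals gave the same 5 mean ranks.

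Leaving out each replicate in turn, the mean rank stayed at 1 for CYTB and ran from 5 to 6 in COX3, 4.5 (without replicate 2) to 10 in ATP6, 7.5 to 11 in COX1 and 9 to 12 in COX2. The SD of the summit position ran from 12.7 to 29.7 bp in CYTB (lowest without replicate 1), 3.54 to 29.7 in COX3 (lowest without replicate 2), 0.707 to 9.19 in ATP6 (lowest without replicate 1), 65.1 to 477 in COX1 (lowest without replicate 1) and 9.19 to 94.8 in COX2 (lowest without replicate 3). The coverage difference from complex I genes ran from -3.35 to 0.939 points (0.503 without replicate 1 and 0.939 without replicate 2), and was -1.43 with the top 300 peaks, -2.06 with the top 1000 and 3.37 with each gene weighing the same (chosen after seeing the data). The weighting gives ND4L, which has almost no coverage, as much weight as longer genes. No paired analysis was possible because all samples form 1 group, so none are paired across groups, although the coverage difference between genes was taken within each replicate. Depth is unknown, so the counting error of single peaks is too.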

Other observations

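A summit that lies in none of the 5 genes stood 5 bp beyond the end of ATP6. It was at 3240 in the IDR list, between ATP6 and the tRNA gene WBGene00014458, with a signal of 98.8 and rank 34. Replicate 1 had a summit on the same base (signal 112, rank 16) and replicate 2 one at 3252 (117.5, rank 17), inside that tRNA gene, while replicate 3 had no summit within 200 bp.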
